A study of Homo sapiens with 24 samples.

Results

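RNA polymerase II and its elongation machinery are described here through 44 genes taken by name: 12 subunits of the polymerase, 8 initiation factors, 6 subunits of the kinases that phosphorylate its tail, 5 genes of DSIF, SPT6 and FACT, 4 of NELF, 5 of the PAF1 complex, and 4 regulators of P-TEFb or members of the super elongation complex. Of these, 43 were among the 11408 genes measured in all 4 cell lines, out of 16795 measured in any line, and all 43 entered every test. NELFE was not analysed here. The lines were the human small-cell lung cancer lines H187 and H209, which the study calls ISL1 high, and H82 and SHP-77, which it calls ISL1 low. Each was given 0.1 nM lurbinectedin or the vehicle DMSO for 24 h in biological triplicates, which makes 24 samples in 8 groups of 3, and total RNA depleted of ribosomal RNA was sequenced. All groups grew in RPMI-1640 with fetal bovine serum, and each line is a single established culture of tumour cells. The libraries held between 24226553 and 36415190 counts. INSM1, SYP and NCAM1, markers of neuroendocrine small-cell lung cancer, were measured in all 4 lines. Under DMSO the ISL1 transcript averaged 252 and 215 CPM (a gene's counts scaled to the library total) in H187 and H209, against 3.62 and 0.912 CPM in H82 and SHP-77. For CPM of the members that total was first adjusted by TMM scaling within each line. Of 8 markers of other cell types, COL1A1, COL1A2 and PECAM1 were measured in 2 lines each, at 0.617 to 6.35 CPM under DMSO, and 5 were not analysed here.

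RNA polymerase II transcribes protein-coding genes. General initiation factors place it at a promoter, and NELF and DSIF hold it paused a short way downstream. The kinase P-TEFb, made of CDK9 and a cyclin T, releases it by phosphorylating DSIF, NELF and the tail of the largest subunit. HEXIM1, bound to the non-coding 7SK RNA, keeps P-TEFb inactive, and HEXIM1 transcription is known to rise when P-TEFb is freed from it. The PAF1 complex, SPT6 and FACT travel with the elongating enzyme. Lurbinectedin is an alkylating drug that binds the minor groove of DNA, and it is known to stall elongating polymerase and to lead to degradation of its largest subunit protein. The libraries measured RNA only, so that degradation was not measured here.

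Effects of lurbinectedin are given as log2 change (lurbinectedin over DMSO) ± standard error (SE) from edgeR's quasi-likelihood test within each line. A gene is called where the p adjusted by Benjamini-Hochberg over all genes tested in that line is under 0.05. In H187, 3 members were called higher and 4 lower, beside 12.2% and 12.7% of all genes tested. In H209, 5 were higher and 11 lower, beside 22.7% and 22.5% of all genes. In H82, 1 was higher and 0 lower, beside 1.55% and 1.38%. In SHP-77, 1 was higher and 0 lower, beside 1.98% and 3.21%. At an unadjusted p under 0.05 there were 4 members in H82 and 5 in SHP-77, in either direction, and DESeq2 called the same counts as edgeR in these 2 lines. The 43 members had a median log2 change of 0.02 in H187, of -0.00 in H209, of 0.01 for H82 and of -0.01 for SHP-77, and that of all genes lay within 0.01 of 0 in each line. Every called change was small, the largest being 0.46 on the log2 scale. Across the lines 18 members were called at least once and 25 never. Leaving out lurbinectedin replicate 1, 2 or 3 of H187 left 1, 2 and 2 members lower there, and in H82 the count of 1 higher became 3 without DMSO replicate 3 and 0 without any other library. HEXIM1 was the 1 member called in 3 lines, and no member was called in opposite directions. POLR2B, GTF2F2, CDK12, CDC73 and HEXIM1 were called the same way in both H187 and H209. The matching shares over all genes were not computed. These counts over several lines therefore cannot be set against genes in general. Counts are relative to each library's total, so a fall in the number of cells and a fall in RNA per cell cannot be told apart, and an equal fall of all transcripts would not be seen.

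**Figure D1:**
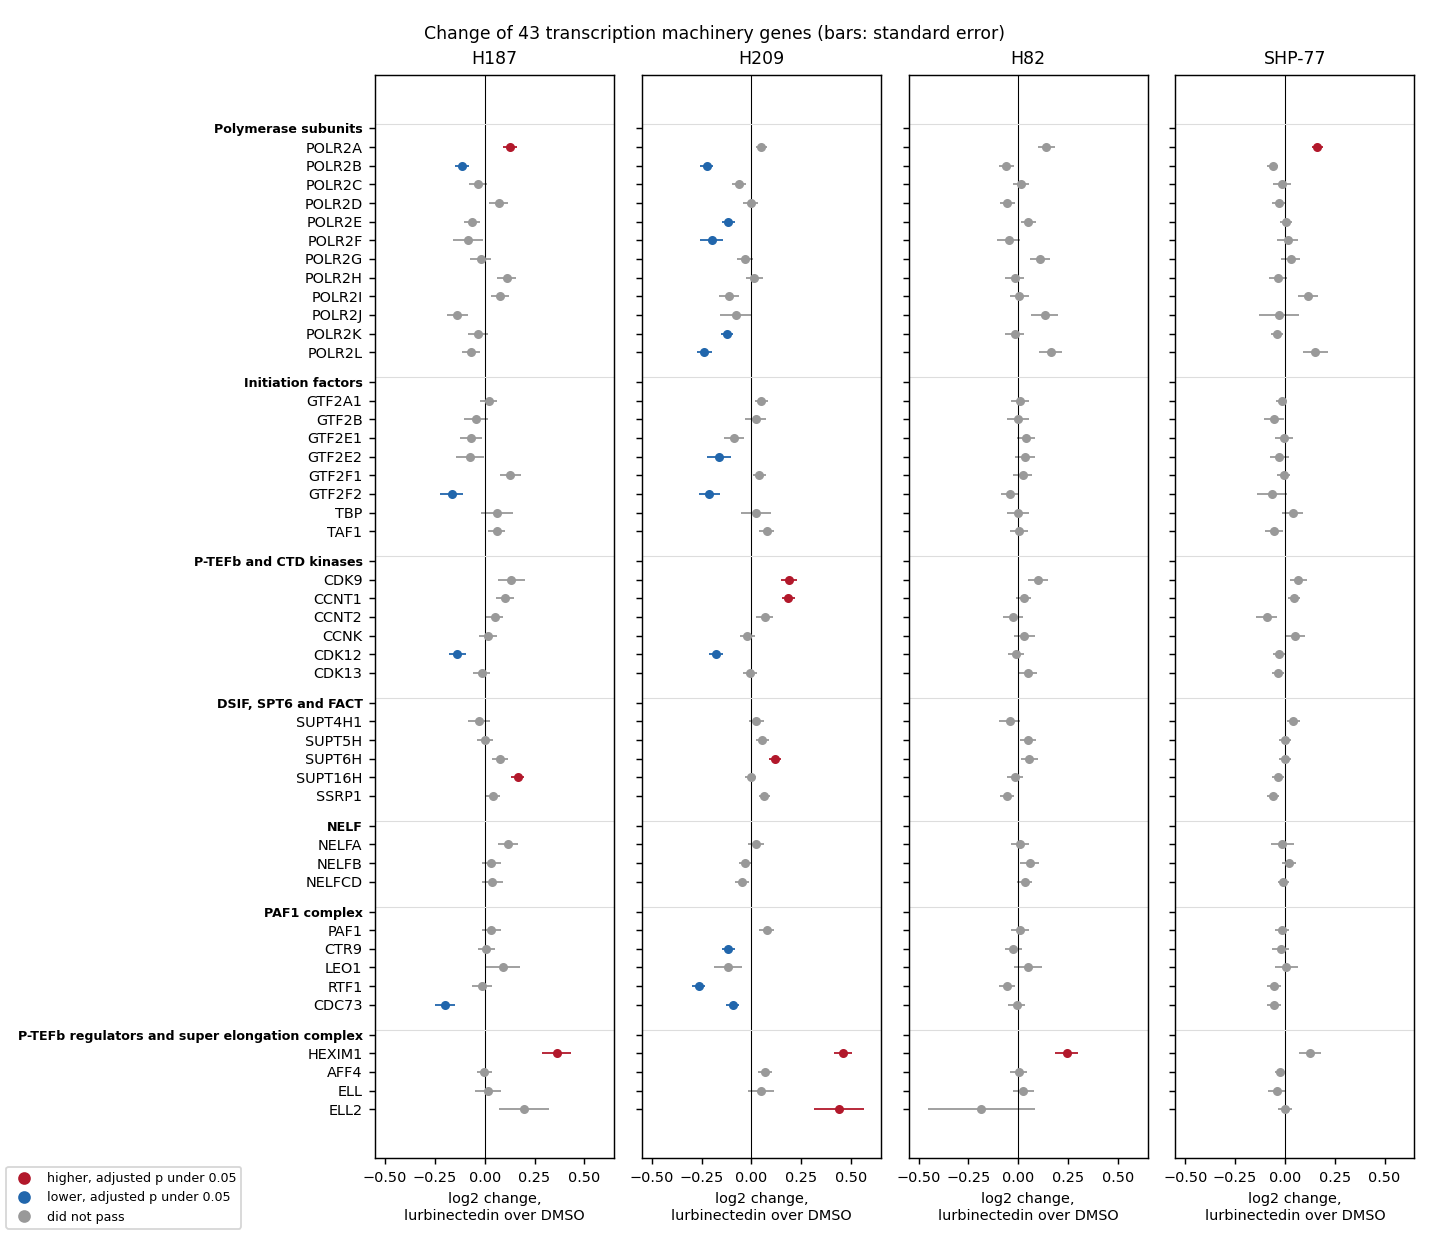
Log2 change (lurbinectedin over DMSO, x axis, ± SE) of the 43 measured genes in each line, grouped by role; red and blue points are called higher and lower at an adjusted p under 0.05 and grey points did not pass. HEXIM1 is the rightmost called point in H187 and H82 and, with ELL2, in H209, where POLR2B, POLR2L and RTF1 lie farthest left.

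HEXIM1, the inhibitor of P-TEFb, had the largest rise of any member and was called in 3 of the 4 lines. In H209 it reached 46.0, 45.3 and 45.1 CPM in the lurbinectedin samples, against 33.4, 33.1 and 32.8 CPM in the DMSO samples. In H187 it reached 20.2, 18.3 and 20.3 CPM under lurbinectedin, against 13.9, 15.7 and 16.1 CPM under DMSO. In H82 it stood at 22.7, 21.4 and 22.4 CPM under lurbinectedin, against 18.6, 18.7 and 19.0 CPM under DMSO. Each lurbinectedin sample was above each DMSO sample of its line, and this was also so in SHP-77. There the values were 31.5, 34.3 and 31.9 CPM under lurbinectedin, against 30.3, 30.9 and 28.1 CPM under DMSO. The log2 change was 0.46 ± 0.04 in H209 (adjusted p = 8.7e-12), 0.36 ± 0.07 in H187 (adjusted p = 0.00108) and 0.24 ± 0.06 in H82 (adjusted p = 0.0243). It was 0.13 ± 0.05 in SHP-77 and did not pass (adjusted p = 0.215). The call in H82 was lost on leaving out DMSO replicate 1 or 2 or any of the 3 lurbinectedin replicates, with adjusted p between 0.0531 and 0.122 and log2 changes between 0.23 and 0.27.

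HEXIM1 has no intron: its annotated span on chromosome 17 from 45147317 to 45152101 (plus strand, hg38) equals its deposited gene length, in exons, of 4785 bases. Promoter windows from RefSeq (GRCh38.p14), each 300 bases long, are shown for HEXIM1, for CDK9 and CCNT1, which were called higher beside it in H209, and for POLR2A, which encodes the largest subunit. They run 5′ to 3′ on the gene's own strand from 250 bases before the RefSeq start site to 50 after it, and capitals mark the matches, on either strand, to the motifs named after them. They lie at chr17:45148225-45148524 (plus strand) for HEXIM1, chr9:127785784-127786083 (plus strand) for CDK9, chr12:48716658-48716957 (minus strand) for CCNT1 and chr17:7484116-7484415 (plus strand) for POLR2A. The RefSeq start of HEXIM1 lies 1158 bases inside the gene as annotated for the counts, and that of CCNT1 lies 291 bases inside its gene. Those of CDK9 and POLR2A lie 8 and 13 bases from the annotated start.
HEXIM1: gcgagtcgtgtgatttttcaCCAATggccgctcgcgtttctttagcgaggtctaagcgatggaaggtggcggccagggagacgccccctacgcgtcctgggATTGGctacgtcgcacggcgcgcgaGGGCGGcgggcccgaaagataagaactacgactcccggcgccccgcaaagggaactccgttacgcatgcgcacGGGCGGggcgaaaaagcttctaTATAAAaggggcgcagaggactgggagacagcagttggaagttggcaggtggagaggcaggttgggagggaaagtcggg
CDK9: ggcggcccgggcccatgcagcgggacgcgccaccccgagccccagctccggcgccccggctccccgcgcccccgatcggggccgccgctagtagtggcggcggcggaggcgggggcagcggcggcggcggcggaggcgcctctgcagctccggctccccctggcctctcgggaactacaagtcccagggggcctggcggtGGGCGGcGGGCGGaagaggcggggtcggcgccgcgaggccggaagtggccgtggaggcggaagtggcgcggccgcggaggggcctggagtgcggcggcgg
CCNT1: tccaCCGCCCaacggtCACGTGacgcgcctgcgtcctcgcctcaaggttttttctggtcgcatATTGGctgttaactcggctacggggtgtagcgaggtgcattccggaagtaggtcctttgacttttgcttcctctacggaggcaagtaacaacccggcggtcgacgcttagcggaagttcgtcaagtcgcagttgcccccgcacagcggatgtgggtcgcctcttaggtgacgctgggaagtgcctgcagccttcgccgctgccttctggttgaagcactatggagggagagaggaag
POLR2A: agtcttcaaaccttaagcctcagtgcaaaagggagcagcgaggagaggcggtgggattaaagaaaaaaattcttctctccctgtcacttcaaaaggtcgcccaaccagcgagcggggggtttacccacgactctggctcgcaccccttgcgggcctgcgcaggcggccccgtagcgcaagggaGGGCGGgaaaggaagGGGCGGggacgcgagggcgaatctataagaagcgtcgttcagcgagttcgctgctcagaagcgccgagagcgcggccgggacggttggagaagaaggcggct
The motifs searched were the TATA box TATAAA, the CCAAT box CCAAT, the GC box GGGCGG, the E-box CACGTG, the cAMP response element TGACGTCA and the C/EBP-ATF element TGATGNAA, each on both strands and none overlapping another in these 4 windows. HEXIM1 holds TATAAA at positions -29 to -24 from the start, 2 CCAAT boxes and 2 GC boxes. CDK9 and POLR2A hold 2 GC boxes each and no other motif of the 6, and CCNT1 holds 1 CCAAT box, 1 GC box and 1 E-box. Windows were found for 36 of the 44 members, and of these only HEXIM1 and GTF2B hold TATAAA, against 11.5% of all 35116 windows. GGGCGG is in 63.9% of the members' windows and in 45.0% of all windows, CCAAT in 22.2% and 34.6%, and CACGTG in 13.9% and 7.26%. TGACGTCA and TGATGNAA are in 0 member windows, and in 1.85% and 3.62% of all windows. A match is a description of these letters and not evidence of a site in use.

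Both core genes of P-TEFb were called higher in H209, and CDK12 was called lower in both ISL1-high lines. Of the 6 kinase and cyclin genes, 2 were higher and 1 lower in H209, beside 22.7% and 22.5% of all genes. In H187, 0 were higher and 1 lower, beside 12.2% and 12.7%. CDK9, the kinase, measured 53.9, 52.8 and 52.4 CPM in the H209 lurbinectedin samples, against 45.8, 46.1 and 47.7 CPM in the H209 DMSO samples, and the groups did not overlap. Its log2 change there was 0.19 ± 0.04 (adjusted p = 0.000140). In H187 CDK9 measured 23.2, 22.5 and 20.4 CPM under lurbinectedin, against 19.3, 19.5 and 21.4 CPM under DMSO, with overlapping groups. In H82 it measured 32.3, 32.5 and 32.5 CPM under lurbinectedin, against 30.5, 29.01 and 31.3 CPM under DMSO, without overlap. In SHP-77 it measured 69.6, 63.0 and 67.7 CPM under lurbinectedin, against 65.5, 61.6 and 64.3 CPM under DMSO, with overlap. Its log2 change was 0.13 ± 0.07 in H187, 0.10 ± 0.05 in H82 and 0.07 ± 0.04 in SHP-77 and passed in none of them (adjusted p = 0.162, 0.302 and 0.461). Cyclin T1 (CCNT1), its main partner, measured 143, 135 and 139 CPM in the H209 lurbinectedin samples, against 121, 124 and 123 CPM under DMSO. That is a log2 change of 0.19 ± 0.03 (adjusted p = 5.55e-06), and CCNT1 did not pass in H187 (0.10 ± 0.04, adjusted p = 0.0944) or in the ISL1-low lines. Cyclin T2 (CCNT2), cyclin K (CCNK) and CDK13 passed in no line, CCNT2 having the smallest p of these kinase genes in SHP-77. There it measured 23.4, 22.0 and 21.7 CPM under lurbinectedin, against 23.4, 24.1 and 23.9 CPM under DMSO, with overlapping groups (log2 change -0.09 ± 0.05, adjusted p = 0.402).

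CDK12, which phosphorylates the polymerase tail with cyclin K and sustains expression of long DNA-repair genes, moved the other way. It measured 126, 128 and 126 CPM in the H187 lurbinectedin samples, against 136, 138 and 144 CPM under DMSO, and 150, 166 and 154 CPM in the H209 lurbinectedin samples, against 175, 176 and 181 CPM under DMSO. Neither pair of groups overlapped. The log2 change was -0.14 ± 0.04 in H187 (adjusted p = 0.0210) and -0.18 ± 0.03 in H209 (adjusted p = 3.2e-05). The H187 call was lost without DMSO replicate 3, lurbinectedin replicate 1 or lurbinectedin replicate 3 (adjusted p = 0.0585, 0.0608 and 0.0791) and with a replicate block (0.0667).

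Among the other regulators, ELL2, a subunit of the super elongation complex that raises the rate of elongation, was called higher in H209. It measured 5.11, 5.78 and 5.87 CPM under lurbinectedin, against 3.44, 4.76 and 4.05 CPM under DMSO, with a log2 change of 0.44 ± 0.13 (adjusted p = 0.00382). This is a transcript near the lower end of what was measured, and its error was accordingly wide. AFF4, the scaffold of that complex, and ELL passed in no line.

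Other genes of the 7SK and elongation pathway, from a list of 23 of which 21 were tested in H187 and H209, were called at about the rate of all genes. In H187, 3 were higher and 4 lower (14.3% and 19.0%), beside 12.2% and 12.7% of all genes, and in H209, 5 were higher and 6 lower (23.8% and 28.6%), beside 22.7% and 22.5%. MEPCE, the enzyme that caps 7SK RNA, was among those higher in both, at 0.27 ± 0.05 in H187 (adjusted p = 0.000115) and 0.23 ± 0.03 in H209 (adjusted p = 2.16e-07). TCEA1, the TFIIS factor that restarts backtracked polymerase, rose by 0.26 ± 0.03 in H209 (adjusted p = 5.43e-09). AFF1 and MLLT3, alternative subunits of the super elongation complex, fell in H187 by 0.15 and 0.21 on the log2 scale. The 7SK RNA itself (RN7SK), added after its values were seen, changed by 0.08 ± 0.02 in H209 (adjusted p = 9.84e-05) with overlapping groups, and passed in no other line.

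**Figure D2:**
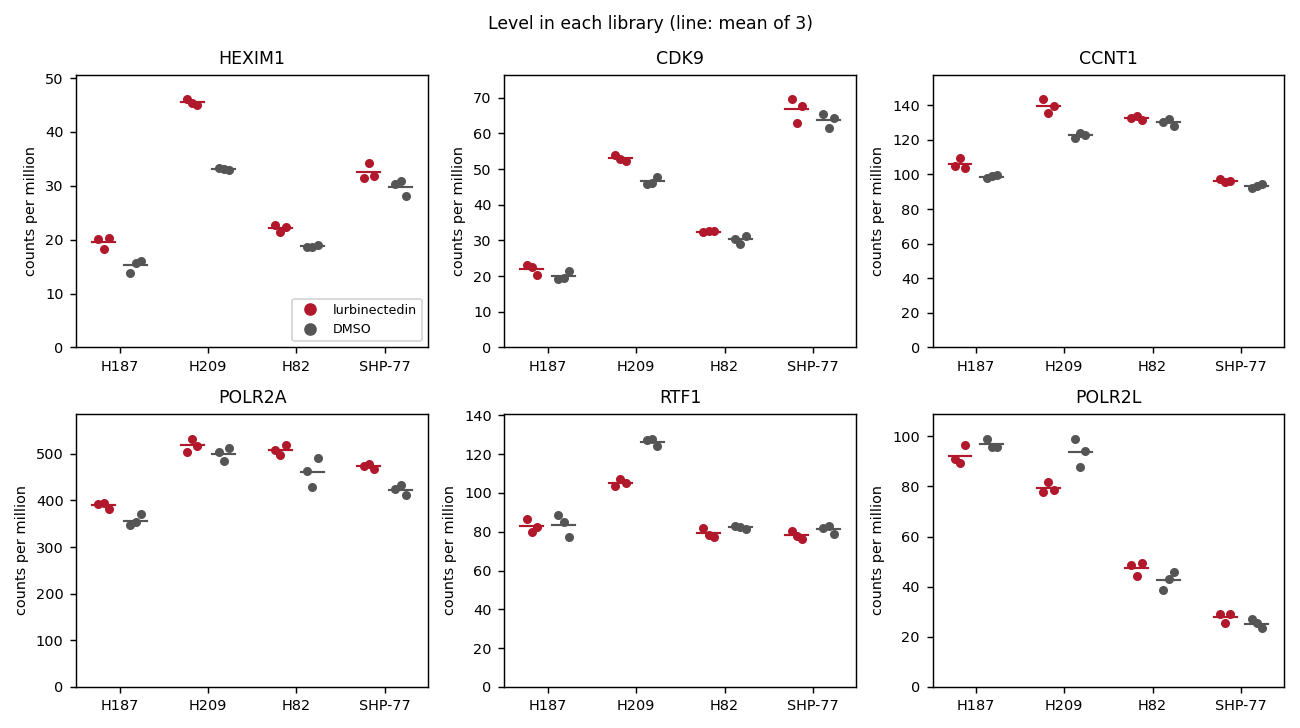
Level of HEXIM1, CDK9, CCNT1, POLR2A, RTF1 and POLR2L in CPM (y axis, from 0) in each of the 24 libraries, lurbinectedin in red to the left of DMSO in grey, with a bar at each mean of 3. HEXIM1 is above its DMSO libraries in every line, CDK9, CCNT1, RTF1 and POLR2L separate most in H209, and POLR2A separates in H187, H82 and SHP-77.

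The largest subunit gene of the polymerase and its other subunit genes did not move together. POLR2A, whose protein carries the catalytic centre and the tail, was called higher in H187 and SHP-77, and POLR2B, whose protein forms the other side of the active cleft, was called lower in H187 and H209. In SHP-77 POLR2A measured 474, 479 and 467 CPM under lurbinectedin, against 424, 433 and 411 CPM under DMSO. In H187 it measured 393, 394 and 381 CPM under lurbinectedin, against 347, 353 and 371 CPM under DMSO. Groups did not overlap in either line, nor in H82, where it measured 508, 498 and 520 CPM under lurbinectedin, against 464, 429 and 491 CPM under DMSO. They overlapped in H209, at 504, 533 and 518 CPM under lurbinectedin, against 504, 484 and 513 CPM under DMSO. The log2 change was 0.16 ± 0.03 in SHP-77 (adjusted p = 0.000894) and 0.13 ± 0.04 in H187 (adjusted p = 0.0139). It did not pass in H82 (0.14 ± 0.04, adjusted p = 0.0790) or H209 (0.05 ± 0.03, adjusted p = 0.150). The H187 call was lost without DMSO replicate 1, lurbinectedin replicate 1 or lurbinectedin replicate 2 (adjusted p = 0.0525, 0.0675 and 0.0619) and with a correction for GC content (0.09, adjusted p = 0.0907).

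POLR2B measured 97.3, 95.5 and 93.5 CPM in the H209 lurbinectedin samples, against 113, 109 and 113 CPM under DMSO. In H187 it measured 288, 289 and 297 CPM under lurbinectedin, against 317, 314 and 316 CPM under DMSO. The groups did not overlap, and the log2 change was -0.22 ± 0.03 in H209 (adjusted p = 2.28e-07) and -0.12 ± 0.03 in H187 (adjusted p = 0.0186). In H82 and SHP-77 it was -0.06 ± 0.04 and -0.06 ± 0.03 and did not pass. The H187 call was lost without lurbinectedin replicate 1 or 2 (adjusted p = 0.0867 and 0.0808) and with a replicate block (adjusted p = 0.0566).

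In H209, 5 of the 12 subunit genes were called lower and 0 higher, beside 22.5% and 22.7% of all genes there, and their median log2 change was -0.10. Besides POLR2B these were POLR2E, POLR2F, POLR2K and POLR2L, subunits that RNA polymerases I and III share with polymerase II. POLR2L measured 77.9, 81.7 and 78.7 CPM under lurbinectedin, against 99.1, 87.7 and 94.3 CPM under DMSO (log2 change -0.24 ± 0.04, adjusted p = 1.18e-06). POLR2F measured 22.7, 22.8 and 23.6 CPM under lurbinectedin, against 27.5, 24.0 and 28.1 CPM under DMSO (-0.20 ± 0.06, adjusted p = 0.00513). Neither gene's groups overlapped. POLR2E and POLR2K fell by 0.12 each on the log2 scale. POLR2H, the remaining subunit common to all 3 polymerases, changed by 0.01 in H209 and did not pass. Exons of POLR2E and POLR2F overlap genes on the opposite strand (ARHGAP45 and C22orf23), and whether the counts used strand is not given in the sources used here, so reads of these neighbours may be included. Exons of POLR2C, POLR2I, POLR2J, CCNK and SUPT4H1, called in no line, also overlap a gene on the opposite strand. In H187 the subunit count was 1 higher and 1 lower, beside 12.2% and 12.7% of all genes. In H82 it was 0 and 0, beside 1.55% and 1.38%, and in SHP-77 1 higher and 0 lower, beside 1.98% and 3.21%. POLR2C, POLR2D, POLR2G, POLR2I and POLR2J passed in no line. POLR2J has near-identical copies in the genome, so its values are uncertain.

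Of the 8 initiation factors, 1 was called lower in H187 and 2 in H209, beside 12.7% and 22.5% of all genes, and 0 were called higher in these lines or in either direction in the ISL1-low lines. GTF2F2, the small subunit of TFIIF, was lower in both ISL1-high lines. It measured 23.9, 23.6 and 23.2 CPM in the H209 lurbinectedin samples, against 27.4, 27.1 and 27.3 CPM under DMSO (log2 change -0.21 ± 0.05, adjusted p = 0.00145). In H187 it measured 26.3, 27.5 and 26.9 CPM under lurbinectedin, against 28.4, 31.8 and 30.6 CPM under DMSO (-0.16 ± 0.06, adjusted p = 0.0390). Groups overlapped in neither line. The H187 call was lost without DMSO replicate 2 or 3 or any of the 3 lurbinectedin replicates (adjusted p between 0.0568 and 0.148), with DESeq2 (adjusted p = 0.0791), with a GC correction (0.0646) and with a replicate block (0.0531). GTF2E2, of TFIIE, changed by -0.16 ± 0.06 in H209 (adjusted p = 0.0225), a call lost without DMSO replicate 1 or lurbinectedin replicate 2 or 3 (adjusted p = 0.0661, 0.0629 and 0.114) and with DESeq2 (0.0589). In H82, GTF2F2 had the smallest p of the group, at 55.3, 58.1 and 57.9 CPM under lurbinectedin, against 58.5, 57.3 and 60.6 CPM under DMSO (adjusted p = 0.663), with overlap. GTF2A1, GTF2B, GTF2E1, GTF2F1, TBP and TAF1 passed in no line, and TAF1, which had the smallest p of the group in SHP-77, measured 49.7, 53.0 and 51.7 CPM there under lurbinectedin, against 52.7, 53.5 and 53.8 CPM under DMSO (-0.05 ± 0.05, adjusted p = 0.607), with overlap.

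Of the 5 genes of DSIF, SPT6 and FACT, 1 was called higher in H187 and 1 in H209, beside 12.2% and 22.7% of all genes. In the ISL1-low lines 0 were called, and 0 were called lower in any line. In H209 SPT6 (SUPT6H), a histone chaperone that rides with the polymerase, was higher, at 182, 184 and 188 CPM under lurbinectedin, against 170, 167 and 173 CPM under DMSO (log2 change 0.12 ± 0.03, adjusted p = 0.00213). In H187 the called gene of this group was SUPT16H, a subunit of the histone chaperone FACT. It measured 492, 483 and 499 CPM under lurbinectedin, against 431, 441 and 443 CPM under DMSO (0.17 ± 0.03, adjusted p = 0.000935). Groups overlapped for neither. SSRP1, the other FACT subunit, passed in no line although its groups did not overlap in any of the 4. Its log2 change was 0.04 ± 0.04 and 0.06 ± 0.03 in H187 and H209, against -0.06 ± 0.04 and -0.06 ± 0.03 in H82 and SHP-77. In H82 it measured 354, 355 and 350 CPM under lurbinectedin, against 365, 368 and 367 CPM under DMSO. In SHP-77 it measured 241, 240 and 229 CPM under lurbinectedin, against 244, 251 and 244 CPM under DMSO. SUPT4H1 and SUPT5H, which form DSIF, passed in no line. The 3 measured NELF genes also passed in none. NELFA, the one with the smallest p in H187, measured 81.4, 76.3 and 78.3 CPM there under lurbinectedin, against 73.8, 77.3 and 66.7 CPM under DMSO (0.12 ± 0.05, adjusted p = 0.102), with overlapping groups. NELFCD measured 93.6, 105 and 101 CPM in the H209 lurbinectedin samples, against 102, 102 and 104 CPM under DMSO (-0.05 ± 0.04, adjusted p = 0.266). NELFB measured 85.3, 81.9 and 89.2 CPM in the H82 lurbinectedin samples, against 82.7, 77.3 and 86.1 CPM under DMSO (0.06 ± 0.05, adjusted p = 0.554). In SHP-77 it measured 105, 98.1 and 107 CPM under lurbinectedin, against 103, 106 and 96.9 CPM under DMSO (0.02 ± 0.04, adjusted p = 0.848). The groups overlapped in each of these.

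Genes of the PAF1 complex, which couples elongation to histone modification, were lower where they were called. Of its 5 genes, 1 was called lower in H187 and 3 in H209, beside 12.7% and 22.5% of all genes. RTF1 had the largest fall of any called member in the 4 lines. It measured 104, 107 and 105 CPM in the H209 lurbinectedin samples, against 127, 128 and 124 CPM under DMSO, with a log2 change of -0.27 ± 0.03 (adjusted p = 2.03e-09) and no overlap. In H187, H82 and SHP-77 it changed by -0.01 ± 0.05, -0.06 ± 0.04 and -0.05 ± 0.03 and did not pass. In H82 it measured 82.1, 78.2 and 77.3 CPM under lurbinectedin, against 83.0, 82.2 and 81.5 CPM under DMSO. In SHP-77 it measured 80.4, 77.9 and 76.5 CPM under lurbinectedin, against 81.8, 82.9 and 79.0 CPM under DMSO. Groups overlapped in both lines. CDC73, the tumour suppressor parafibromin, measured 98.9, 104 and 95.4 CPM in the H187 lurbinectedin samples, against 110, 113 and 120 CPM under DMSO (-0.20 ± 0.05, adjusted p = 0.00479). It was also lower in H209 (-0.09 ± 0.03, adjusted p = 0.0198), a call lost without DMSO replicate 2 or lurbinectedin replicate 3 (adjusted p = 0.0609 and 0.0868), with a GC correction (0.0643) and in a fit of all 24 samples (0.0516). CTR9 fell by 0.12 ± 0.03 on the log2 scale in H209 (adjusted p = 0.00432). PAF1 and LEO1 passed in no line.

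Members that fell tended to be the longer genes, and the same held across all genes. In the files, members span 1.60 to 164 kb from first to last annotated base, with a median of 30.1 kb, against 28.3 kb for all genes measured in the 4 lines. All 4 members called lower in H187 (POLR2B, GTF2F2, CDK12 and CDC73) span 50 kb or more, as do 12 of the 43 members. Among all genes of that length 23.3% were called lower in H187 and 7.96% higher, against 7.00% lower and 15.6% higher among shorter genes. In H209, 7 of the 12 long members were lower and 1 was higher (ELL2), against 4 lower and 4 higher of the 31 shorter ones. Over all genes there, 37.6% of the long ones were lower and 15.8% higher, against 18.0% lower and 28.4% higher of the shorter. Over the 43 members Spearman's rho between log2 change and span was -0.26 for H187, -0.06 for H209, -0.31 for H82 and -0.48 for SHP-77, against -0.23, -0.24, -0.32 and -0.28 over the 11408 genes. These genes come from the same libraries and are not independent replicates. GC content moved with the change as well (rho 0.19, 0.04, 0.42 and 0.44 over the members), and the part of either in the members' changes was not tested. POLR2F counts as long because the files annotate it over 88.3 kb.

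**Figure D3:**
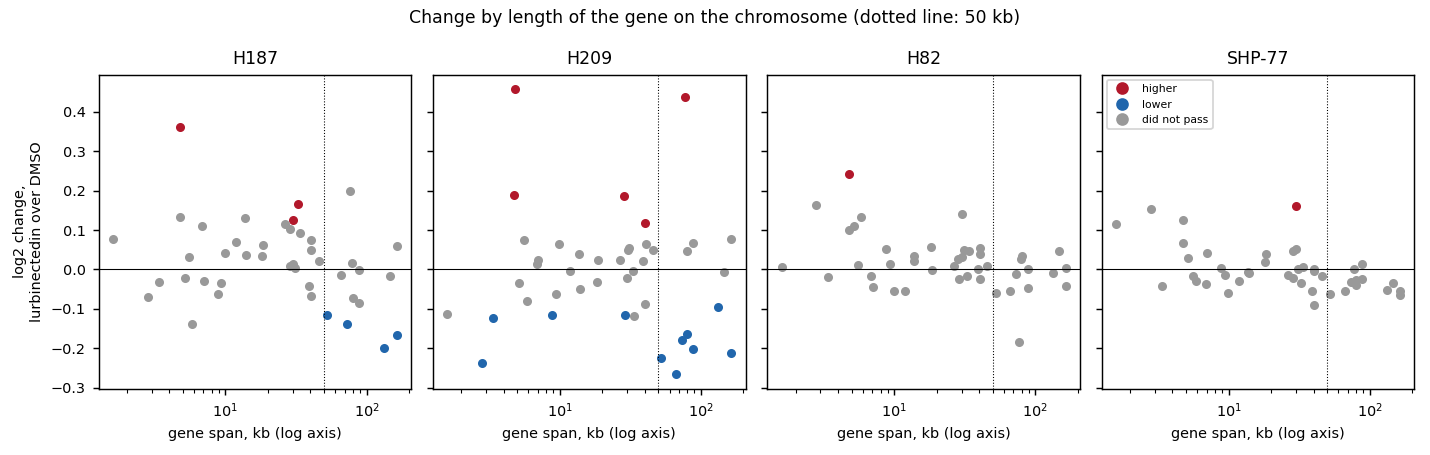
Log2 change (lurbinectedin over DMSO, y axis) against the gene's span in kb (log x axis) for the 43 genes in each line, with a dotted line at 50 kb; red, blue and grey points are called higher, called lower and not passing. In H187 all 4 blue points lie right of the line and all 3 red points left of it, and in H209 7 of 11 blue points lie right of it.

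The response to lurbinectedin was then compared between lines, as a difference of log2 changes in a fit of all 24 samples over the 11408 shared genes. For 10 members the mean response of H187 and H209 differed from that of H82 and SHP-77, 5 higher and 5 lower, beside 31.4% of all genes. Classes here are 2 lines each and the test rests on replicate libraries, so it speaks of these 4 lines. HEXIM1 responded more in the ISL1-high lines, by 0.23 ± 0.06 (adjusted p = 0.00170). POLR2L had the smallest p of the 10, at -0.31 ± 0.06 (adjusted p = 4.6e-05): its log2 change was -0.07 and -0.24 in H187 and H209, against 0.16 and 0.15 in H82 and SHP-77, and only the H209 change passed within its own line. CDK12 (-0.14 ± 0.04, adjusted p = 0.00513), POLR2E (-0.12 ± 0.03, adjusted p = 0.00737) and POLR2B (-0.11 ± 0.03, adjusted p = 0.00749) also responded lower in the ISL1-high lines. SSRP1 (0.11 ± 0.03, adjusted p = 0.00267), CCNT1 (0.11 ± 0.03, adjusted p = 0.0121) and SUPT16H (0.11 ± 0.03, adjusted p = 0.0139) had a higher mean response in them. For SUPT16H only H187 stood apart, with a log2 change of 0.17. It changed by -0.005 in H209, against -0.02 and -0.03 in H82 and SHP-77. CDC73 differed by -0.11 ± 0.04 (adjusted p = 0.0315) and ELL2 by 0.41 ± 0.14 (adjusted p = 0.0226). The CDC73 difference was lost with a replicate block (adjusted p = 0.0508) and without any one of 6 libraries, H187 DMSO 3, H187 lurbinectedin 3, H82 DMSO 3, H82 lurbinectedin 2, SHP-77 DMSO 2 and SHP-77 lurbinectedin 2 (adjusted p between 0.0502 and 0.0850). ELL2 changed by 0.20 and 0.44 in H187 and H209, against -0.18 and 0.00 in H82 and SHP-77. In H82 the transcript was at 0.656 to 0.790 CPM under lurbinectedin, against 0.653 to 1.08 CPM under DMSO, and without H82 DMSO replicate 2 the ELL2 difference was 0.28 and did not pass (adjusted p = 0.166).

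Within the classes fewer members differed, but these contrasts set 1 line against 1 and were less precise. For HEXIM1 the SE was 0.08 in each of them, against 0.06 between the classes. Between H209 and H187 the response differed for 2 members, beside 11.1% of all genes: RTF1 (-0.25 ± 0.06, adjusted p = 0.00170), with log2 changes of -0.27 in H209 and -0.01 in H187, and SUPT16H (-0.17 ± 0.05, adjusted p = 0.0145), with -0.00 in H209 and 0.17 in H187. Between SHP-77 and H82 it differed for 0 members, beside 0.342% of all genes. edgeR gave 0 members an unadjusted p under 0.05 in that contrast, and DESeq2 also called 0. POLR2A passed in none of the 3 contrasts.

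**Figure D4:**
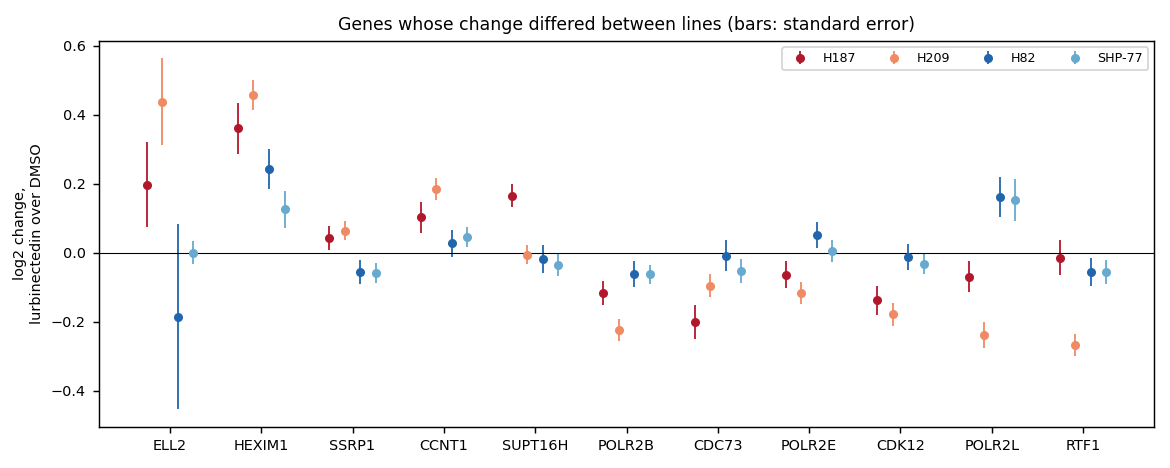
Log2 change (lurbinectedin over DMSO, y axis, ± SE) in the 4 lines, in the order H187, H209, H82 and SHP-77, for the 10 genes whose response differed between ISL1-high and ISL1-low lines and for RTF1. POLR2L lies below 0 in H187 and H209 and above 0 in H82 and SHP-77, while HEXIM1 is above 0 in all 4 lines.

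The wider transcription machinery was taken from 10 further lists. Of 179 such genes tested in H187, 15 were called higher and 19 lower (8.38% and 10.6%), beside 12.2% and 12.7% of all genes. Of 177 in H209, 42 were higher and 49 lower (23.7% and 27.7%), beside 22.7% and 22.5%. Of 177 in H82 there were 0 and 1, beside 1.55% and 1.38%, and of 178 in SHP-77 there were 1 and 2, beside 1.98% and 3.21%. These shares lie near those of all genes or below them. Mediator, the bridge between activators and polymerase, had 2 genes higher and 4 lower of 33 in H187 (6.06% and 12.1%), and 7 higher and 9 lower of 33 in H209 (21.2% and 27.3%). Its kinase CDK19 fell by 0.21 ± 0.04 on the log2 scale in H187 and by 0.48 ± 0.03 in H209. MED8 rose by 0.42 ± 0.04 in H209. TAF11, TAF7 and TAF9B were among 5 further TFIID genes that fell in H209, by 0.28, 0.15 and 0.14, with 0 rising of 13 (38.5% lower). MNAT1, which assembles the kinase of TFIIH, fell in both H187 and H209, by 0.20 and 0.16. Among the phosphatases and assembly factors of the polymerase tail, 4 were higher and 1 lower of 19 in H187 (21.1% and 5.26%), and 6 higher and 1 lower of 19 in H209 (31.6% and 5.26%). CTDSP1, a tail phosphatase, rose by 0.23 ± 0.05 and 0.38 ± 0.04 in H187 and H209.

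Of 19 genes tested that handle stalled polymerase, 1 was higher and 4 lower in H187 (5.26% and 21.1%), beside 12.2% and 12.7% of all genes. In H209, 5 were higher and 6 lower (26.3% and 31.6%), beside 22.7% and 22.5%. NEDD4, a ubiquitin ligase that acts on the largest subunit after DNA damage, rose by 0.94 ± 0.04 in H209 (adjusted p = 2.45e-24). VCP, the segregase that extracts ubiquitinated subunits, fell by 0.12 ± 0.04 in H187 (adjusted p = 0.0204) and by 0.28 ± 0.03 in H209 (adjusted p = 1.56e-11). Of the termination and cleavage factors, 1 was higher and 2 lower of 20 in H187 (5.00% and 10.0%), and 5 higher and 9 lower of 20 in H209 (25.0% and 45.0%), PCF11 falling there by 0.29 ± 0.04. Integrator had 0 genes higher and 1 lower of 14 in H187 (0% and 7.14%), and 2 higher and 6 lower in H209 (14.3% and 42.9%). For polymerase I the counts were 2 higher and 1 lower of 13 in H187 (15.4% and 7.69%), and 3 higher and 2 lower in H209 (23.1% and 15.4%). For polymerase III they were 2 higher and 2 lower of 22 in H187 (9.09% each), and 8 higher and 5 lower of 21 in H209 (38.1% and 23.8%), with POLR3C rising by 0.19 ± 0.04 and 0.52 ± 0.04 in these 2 lines.

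Levels of the members were compared between lines under DMSO, in RPKM, so that genes of different length can be set side by side. RPKM is a gene's CPM divided by its deposited gene length in kilobases, which counts annotated exons only. Medians over the members were 25.2 RPKM in H187 and 24.3 in H209, then 24.5 in H82 and 22.1 in SHP-77, against 11.0, 10.9, 10.6 and 10.8 RPKM for all 11408 genes. SSRP1 was the highest member in H209 and H82 (144 and 146 RPKM), and POLR2K in H187 and SHP-77 (126 and 147 RPKM). ELL2 was the lowest in H187, H209 and H82 (0.719, 0.669 and 0.151 RPKM), and CCNT2 in SHP-77 (3.38 RPKM). The median ratio of a member's highest to its lowest line was 1.73, against 2.61 for all genes. A ratio of 2 or more was reached by 17 members (39.5%) and by 70.8% of all genes.

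Most members nonetheless passed a test between lines. H187 against H209 gave 17 higher and 16 lower members (86.0% of all genes called), H187 against H82 14 and 23 (88.8%), H187 against SHP-77 16 and 24 (88.2%), H209 against H82 15 and 22 (88.8%), H209 against SHP-77 19 and 15 (87.2%), and H82 against SHP-77 21 and 19 (88.8%). The ISL1-high lines against the ISL1-low lines gave 15 higher and 25 lower, where 89.1% of all genes passed. By line means, 5 members (11.6%) were higher in both ISL1-high lines than in both ISL1-low lines, beside 19.7% of all genes, and 10 (23.3%) were lower in both, beside 19.5%, so the 2 classes separated about as many members as genes in general. In the order of the 4 lines, 129 neighbouring pairs of lines were tested over the members and 35 did not pass. The share of such pairs over all genes was not computed, so this count cannot be set against genes in general. SUPT6H passed in none of its 3 neighbouring pairs and lay between 24.5 and 27.1 RPKM. Its outermost lines, SHP-77 and H82, are not neighbours, and their difference is not given here.

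POLR2D, which with POLR2G forms the detachable stalk of the polymerase, varied most among the subunits. It was at 18.3, 18.3 and 18.0 RPKM in H187 and 31.6, 33.9 and 32.9 in H209, against 84.8, 86.6 and 85.1 in H82 and 48.1, 45.0 and 47.7 in SHP-77, and all neighbours differed. POLR2L ran the other way, at 114 ± 1.8 and 106 ± 6.4 RPKM in H187 and H209, against 54.5 ± 4.5 and 30.0 ± 2.2 in H82 and SHP-77 (SD, n = 3 each). POLR2B was at 77.4 ± 0.63 and 26.1 ± 0.52 RPKM in H187 and H209, against 58.9 ± 1.9 and 95.3 ± 2.1 in H82 and SHP-77. POLR2A, at 54.8 ± 2.2 and 73.5 ± 2.0 RPKM in H187 and H209, against 76.9 ± 5.1 and 65.4 ± 1.7 in H82 and SHP-77, had a narrower range, and its difference between H82 and H209 did not pass (adjusted p = 0.171).

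ELL2 had by far the widest range, at 0.716, 0.750 and 0.691 RPKM in H187 and 0.564, 0.780 and 0.662 in H209, against 0.122, 0.201 and 0.131 in H82 and 16.4, 16.2 and 16.8 in SHP-77, a ratio of 109 between the outermost means. The difference between H187 and H209 did not pass (adjusted p = 0.461). NELFA stood at 30.8, 32.4 and 28.1 RPKM in H187 and 20.5, 20.0 and 20.7 in H209, against 28.1, 28.8 and 30.2 in H82 and 8.50, 9.48 and 9.59 in SHP-77. SHP-77 held the least of it, and the difference between H187 and H82 did not pass (adjusted p = 0.174). CCNT2 was also lowest in SHP-77, at 9.65 ± 0.041 and 9.00 ± 0.88 RPKM in H187 and H209, against 11.1 ± 0.90 and 3.38 ± 0.053 in H82 and SHP-77. Its difference between H187 and H209 did not pass (adjusted p = 0.0983).

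GTF2A1, the large subunit gene of TFIIA, was higher in the ISL1-high lines, at 41.7, 42.4 and 47.0 RPKM in H187 and 39.0, 40.6 and 39.1 in H209, against 14.9, 13.7 and 15.1 in H82 and 21.7, 22.0 and 22.6 in SHP-77. Its exons overlap LOC101928504 on the opposite strand, whose reads may be included. CTR9 followed the same order of classes, at 29.6 ± 0.37 and 21.5 ± 0.55 RPKM in H187 and H209, against 16.1 ± 0.39 and 14.9 ± 0.45 in H82 and SHP-77. NELFCD was lower in the ISL1-high lines, at 41.2 ± 1.5 and 44.3 ± 0.50 RPKM in H187 and H209, against 96.7 ± 2.7 and 111 ± 2.0 in H82 and SHP-77. SUPT16H was at 96.8 ± 1.8 and 82.2 ± 1.6 RPKM in H187 and H209, against 77.2 ± 3.2 and 141 ± 2.8 in H82 and SHP-77, and all its neighbours in the order of levels differed. CDK9 stood at 8.40 ± 0.52 and 18.6 ± 0.38 RPKM in H187 and H209, against 13.8 ± 0.52 and 26.9 ± 0.85 in H82 and SHP-77. In its order of SHP-77, H209, H82 and H187 all neighbours differed. HEXIM1 stood at 3.30 ± 0.27 and 6.85 ± 0.059 RPKM in H187 and H209, against 4.41 ± 0.035 and 6.49 ± 0.33 in H82 and SHP-77. H209 was the highest and SHP-77 next, a difference that did not pass (adjusted p = 0.206), followed by H82 and H187, which differed.

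**Figure D5:**
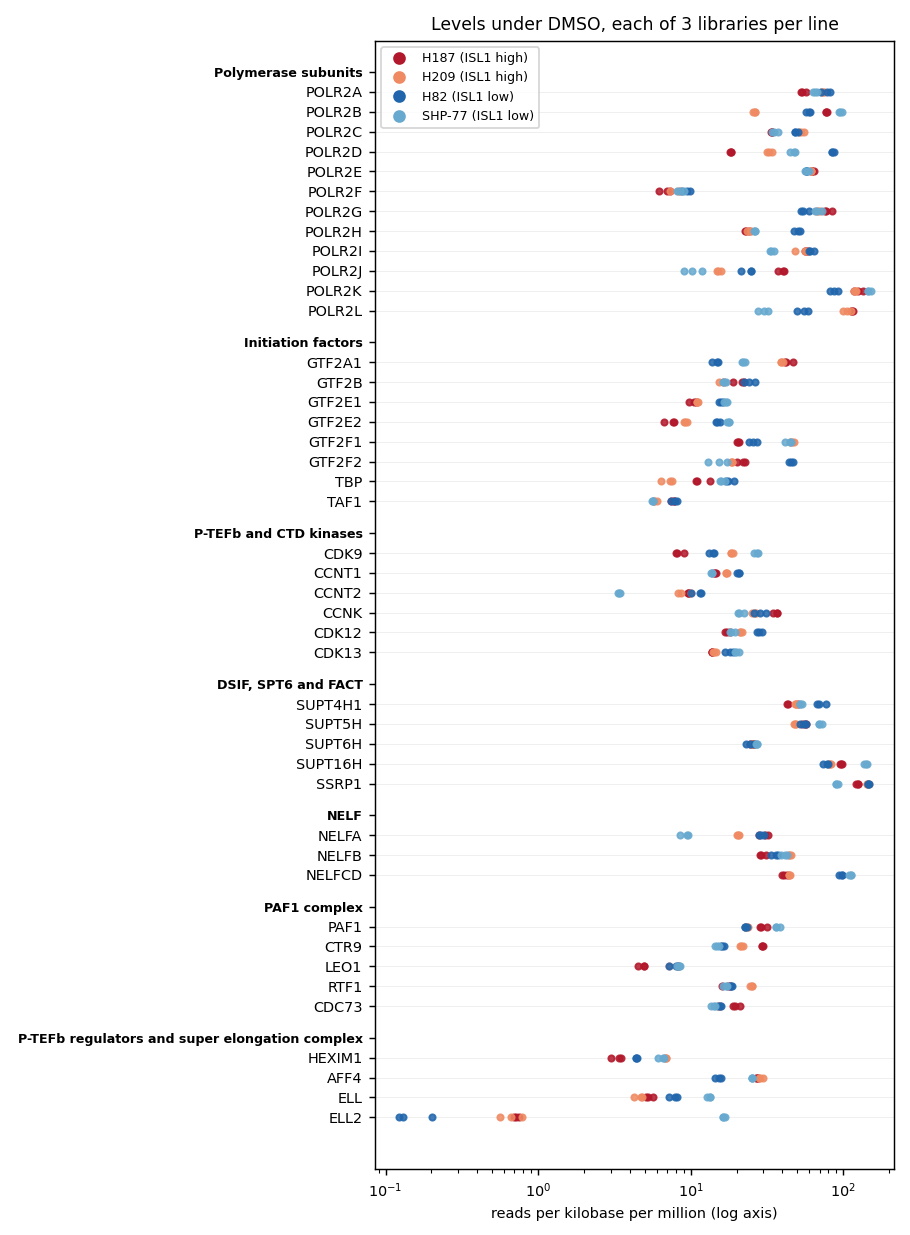
Level under DMSO in RPKM (log x axis) of the 43 genes in each of 3 libraries per line, coloured by line and grouped by role. Points of 1 line lie close together, ELL2 in SHP-77 stands far right of the other lines, and POLR2D and NELFCD lie left in H187 and H209 while POLR2L and GTF2A1 lie right.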

How the data were processed

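The authors aligned and counted reads with STAR 2.7.10a, featureCounts and Subread 2.0.3 on hg38 and used edgeR 4.2.0, per the submitters' processing notes; the annotation, the strand setting and the filter on low values are not given in the sources used here. Per the file headers, the tables deposited for the 4 lines hold raw counts per gene, the authors' log2 CPM and log2 fold change, a signed fold change on a linear scale, and the authors' p-value and FDR. Raw counts were analysed here in R 4.3.3 with edgeR 4.0.16 (filterByExpr, TMM, glmQLFit, glmQLFTest). Drug effects used the 6 samples of a line, response differences all 24, and tests of levels the 12 DMSO samples. RPKM used the deposited gene length and a TMM scaling of all 24 samples over the 11408 shared genes. A p-value then sets a difference of means against the spread between biological triplicates of the same line. On simulated counts in the H187 fit (14022 genes), 83% of genes changed by 0.5 on the log2 scale and 98% of those changed by 1 were recovered. In the fits of H209, H82 and SHP-77 the shares were 87%, 87% and 79% at 0.5, and 99%, 97% and 92% at 1. Every called change of a member was smaller than 0.5, and changes of that size were not simulated. Alternatives were another scaling, 2 filters, DESeq2 1.42.0, a replicate block, GC correction, removal of abundant non-coding RNAs, a joint fit, the authors' deposited table and each library left out. Values in every sample are given for POLR2A, CDK9 and HEXIM1, for the smallest p per role and line, and for the 6 largest rises and falls; levels for the widest line ratio per role; other values belong to called members. The members, the lists and this rule were chosen with earlier results of these data known. Figures were drawn with matplotlib.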

Additional observations from a re-analysis of the deposited data

Results flagged for a closer look

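Each of these genes had a response to lurbinectedin (a log2 change over DMSO) that differed between cell lines in edgeR's test of the difference itself. Between the mean of H187 and H209 and the mean of H82 and SHP-77, the response was higher in the ISL1-high lines by 0.41 for ELL2, 0.23 for HEXIM1, 0.11 for SSRP1, 0.11 for CCNT1 and 0.11 for SUPT16H. For POLR2L the difference was -0.31, for CDK12 -0.14, for POLR2E -0.12, for CDC73 -0.11 and for POLR2B -0.11. The log2 changes of SSRP1, POLR2L and POLR2E had opposite signs in the 2 pairs of lines, though that of POLR2E was only 0.005 in SHP-77. SSRP1 passed in no line of its own, and POLR2L and POLR2E only in H209. HEXIM1 was above 0 in all 4. Between H209 and H187, the difference was -0.25 for RTF1 and -0.17 for SUPT16H. SUPT16H changed by 0.17 in H187 and by -0.005 in H209, so its higher mean in the ISL1-high lines lay in H187. Across all genes tested 31.4% differed in the first contrast and 11.1% in the second.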

How the results depend on the processing

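No called change or response difference of a member reversed under any alternative run. Of 37 such effects, 28 kept their call throughout, and of 723 comparisons with an alternative 683 kept the call and 40 lost it. With a replicate block the members called lower in H187 were 1 in place of 4 and those called higher in H82 were 3 in place of 1. It moved the other counts by less than 1.5 times. Same-numbered samples did not deviate together more than others. Their correlations were between -0.156 and 0.0707, against -0.119 to 0.188 for differently numbered samples. With 3 replicates per group this cannot settle whether the numbers pair the samples. A fit of all 24 samples called 6 members higher in H187 in place of 3, and 2 in H82 in place of 1, and a GC correction called 8 higher in H209 in place of 5. Leaving out 1 library gave 1 to 4 members lower and 2 to 4 higher in H187, 10 to 12 lower and 5 to 6 higher in H209, 0 to 3 higher in H82 and 1 higher in SHP-77. It gave 9 to 12 response differences between the classes. Why these counts moved was not tested. The median of all genes moved by less than 0.02 under every scaling. At 24226553 counts or more per library depth limits ELL2 most, at 1.08 CPM or less in H82.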
